A study of Mus musculus with 4 samples.

Results

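The Wnt ligands, Frizzled receptors and pathway genes comprised 37 genes in 4 classes. These were 19 Wnt ligands, 12 receptors and co-receptors (10 Frizzled genes, Lrp5 and Lrp6), 3 known target or feedback genes (Axin2, Lef1 and Tcf7), and the other scaffold and DNA-binding factors Axin1, Tcf7l1 and Tcf7l2. Members were found by position only: every FAIRE-positive region, that is, every stretch of accessible chromatin called by the authors, that touched the mm10 gene body or the 50 kb upstream of it was counted. This gave 102 regions of the 35796 obtained by merging the peaks of all 4 libraries. The rule that assigns regions to genes uses no measured value, although the gene list was drawn up with earlier results of these data known.

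FAIRE-seq (formaldehyde-assisted isolation of regulatory elements) sequences the DNA that stays in the aqueous phase after fixed chromatin is sheared and extracted with phenol, and so maps nucleosome-poor DNA. The cells were EpRas, a line of mouse mammary gland epithelial cells expressing active H-Ras, and all 4 groups carried it and were collected at day 4. siControl untreated received the control siRNA and no TGF-β. siControl TGF-β received the same siRNA and TGF-β3 at 1 ng/ml. The siEtv4/5 set 1 and siEtv4/5 set 2 groups received TGF-β3 at 1 ng/ml with 1 of 2 siRNA sets against the ETS factors Etv4 and Etv5. The study asked how TGF-β changes accessible chromatin in Ras-transformed cells and whether Etv4 and Etv5 take part. Every group is represented by 1 peak list from 1 cell line, so no spread between replicates could be measured and no test of a condition was possible. The extent of the knockdown is not measured by these lists.

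Wnt ligands are secreted lipid-modified glycoproteins that bind Frizzled receptors together with the co-receptors Lrp5 and Lrp6. In the canonical branch this stops the destruction complex, built on Axin, from degrading β-catenin, which then acts on genes through the TCF/LEF factors; Axin2 and Lef1 are among the genes it induces. Several Wnt ligands take part in branching and stem cell maintenance in the mammary gland, and other ligands act mainly without β-catenin, on cell polarity and movement.

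The lists held 22247 (siControl untreated), 28754 (siControl TGF-β), 22516 (set 1) and 14925 (set 2) regions. The depth, estimated from the peak files, was 15.3, 16.3, 17.3 and 20.7 M reads in that order, so the shortest list came from the deepest library. The median fold enrichment (the ratio of summit signal to local background) was 8.19, 8.44, 7.91 and 7.15, and the lowest number of fragments at a called summit was 10, 11, 11 and 12. Absence from a list therefore means that a site stayed under the authors' threshold, not that it had no signal. The epithelial label was checked at promoters: 5, 3, 3 and 2 of the 5 genes Krt8, Krt18, Epcam, Cdh1 and Cldn4 had a called promoter, and so did 0, 1, 0 and 0 of Ptprc, Cd3e, Pecam1, Alb and Hbb-bs, the 1 being Pecam1 in siControl TGF-β.

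Sequences are shown for the promoter region of highest fold enrichment in each class that had one, for the 1 region with a TCF/LEF motif, and for the pair of regions upstream of Tcf7l2 with the most fragments, a pair picked after their values were seen. Each is the mm10 plus strand around the summit of the strongest peak, shortened where a UTR begins. Capitals mark matches to TCF/LEF (CTTTGAT), AP-1 (TGANTCA), ETS (CCGGAAG or CAGGAAG) or RUNX (TGTGGT) on either strand.
Wnt6, intron, chr1:74773107-74773406: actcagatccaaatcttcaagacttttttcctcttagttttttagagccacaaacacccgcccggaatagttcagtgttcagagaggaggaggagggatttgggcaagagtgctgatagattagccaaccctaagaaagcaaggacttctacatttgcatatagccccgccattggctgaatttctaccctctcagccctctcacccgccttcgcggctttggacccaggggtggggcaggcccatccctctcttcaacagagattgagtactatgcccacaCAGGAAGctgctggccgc
Fzd1, upstream of the start of this minus-strand gene, chr5:4758036-4758305: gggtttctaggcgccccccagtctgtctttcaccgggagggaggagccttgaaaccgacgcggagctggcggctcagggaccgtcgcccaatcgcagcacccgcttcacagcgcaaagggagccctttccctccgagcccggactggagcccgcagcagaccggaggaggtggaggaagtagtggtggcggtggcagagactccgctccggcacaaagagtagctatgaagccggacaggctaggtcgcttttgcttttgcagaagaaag
Axin1, upstream of the start, chr17:26138345-26138644: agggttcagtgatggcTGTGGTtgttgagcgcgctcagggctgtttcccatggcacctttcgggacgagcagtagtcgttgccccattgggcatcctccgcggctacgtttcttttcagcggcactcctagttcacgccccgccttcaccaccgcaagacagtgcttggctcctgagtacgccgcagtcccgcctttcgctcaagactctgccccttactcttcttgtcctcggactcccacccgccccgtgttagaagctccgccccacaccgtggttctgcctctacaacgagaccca
Fzd2 upstream, chr11:102576136-102576397: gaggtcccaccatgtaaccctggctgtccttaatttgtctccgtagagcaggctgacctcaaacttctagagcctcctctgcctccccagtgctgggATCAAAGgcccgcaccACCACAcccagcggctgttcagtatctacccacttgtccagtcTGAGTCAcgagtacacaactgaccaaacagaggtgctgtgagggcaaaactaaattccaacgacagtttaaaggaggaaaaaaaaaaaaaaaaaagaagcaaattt
Tcf7l2 upstream, 27.7 kb from the gene, chr19:55713981-55714280: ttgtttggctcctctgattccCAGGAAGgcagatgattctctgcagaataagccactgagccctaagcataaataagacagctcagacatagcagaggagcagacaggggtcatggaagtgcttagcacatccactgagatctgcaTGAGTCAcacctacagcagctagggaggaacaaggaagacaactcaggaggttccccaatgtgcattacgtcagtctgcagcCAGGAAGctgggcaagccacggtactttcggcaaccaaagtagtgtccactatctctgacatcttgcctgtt
Tcf7l2 upstream, 28.9 kb from the gene, chr19:55712817-55713116: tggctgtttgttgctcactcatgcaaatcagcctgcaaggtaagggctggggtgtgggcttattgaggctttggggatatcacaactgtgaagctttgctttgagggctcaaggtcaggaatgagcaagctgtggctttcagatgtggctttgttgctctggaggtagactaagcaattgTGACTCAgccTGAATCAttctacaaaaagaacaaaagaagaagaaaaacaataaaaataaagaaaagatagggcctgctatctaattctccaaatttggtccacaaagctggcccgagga
The Wnt6 sequence held 1 ETS match, the Axin1 sequence 1 RUNX match and the Fzd1 sequence none of the 4 motifs. The Tcf7l2 region at 27.7 kb held 1 AP-1 and 2 ETS matches, and its neighbour at 28.9 kb held 2 AP-1 matches. The only TCF/LEF match, 28.1 kb upstream of Fzd2, lies in a stretch that the reference genome marks as repeat. That region was called with set 1 alone, at a fold enrichment of 6.28 from 19 fragments. It is separate from the Fzd2 region at 27.8 kb described below, which held no TCF/LEF match.

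Accessible regions were found at 31 of the 37 genes in at least 1 library, beside 72.9% of all 21938 protein-coding genes under the same rule. No region was called in any library at the ligands Wnt2, Wnt5a and Wnt16, the receptors Fzd3 and Fzd10, and Axin2, the negative regulator that β-catenin induces. By library, 55 member regions were called in siControl untreated, 82 in siControl TGF-β, 60 with set 1 and 35 with set 2. Genes with at least 1 region numbered 23, 31, 28 and 18, beside 65.2%, 68.3%, 64.2% and 55.2% of protein-coding genes. Relative to siControl TGF-β, the member counts were 67.1% in siControl untreated, 73.2% with set 1 and 42.7% with set 2, where the whole lists stood at 77.4%, 78.3% and 51.9%. The member counts ranked the 4 libraries in the same order as the list lengths.

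**Figure D1:**
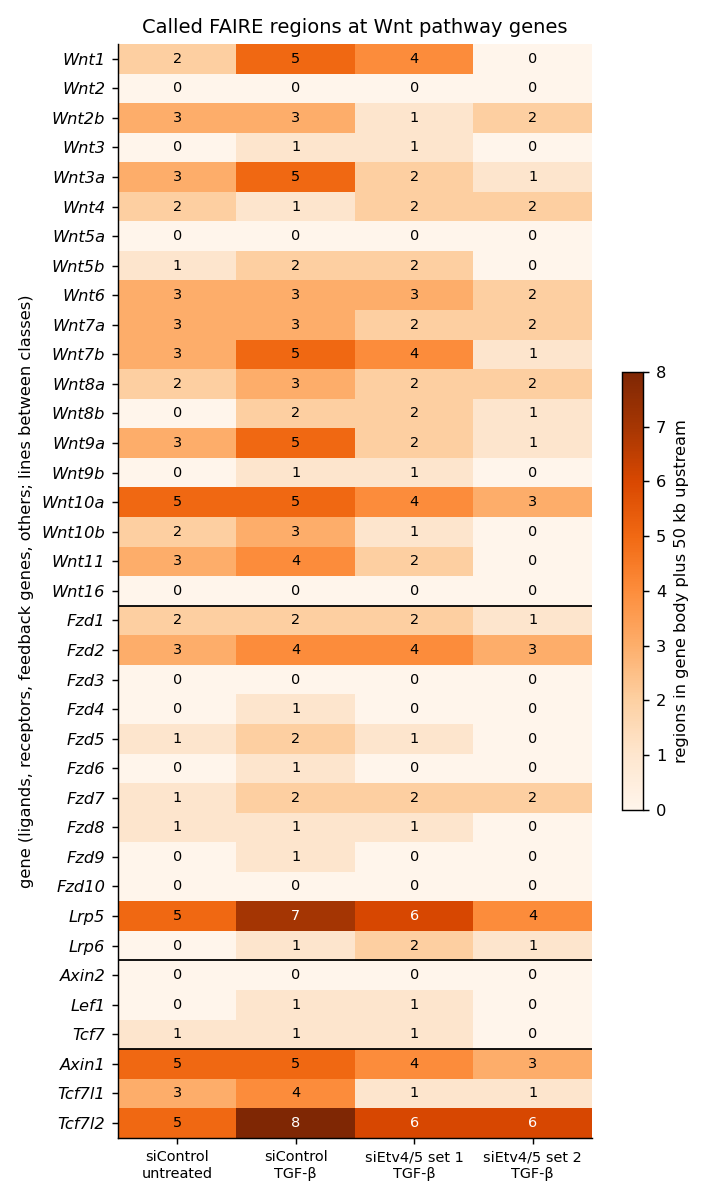
Number of called FAIRE regions in the gene body plus 50 kb upstream, for each of the 37 genes (rows, in 4 classes separated by lines) and each library (columns). siControl TGF-β has the highest total, 82, and Wnt2, Wnt5a, Wnt16, Fzd3, Fzd10 and Axin2 are at 0 in every column; neighbouring ligand genes share regions.

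The classes differed in how densely their loci were covered. Summed gene by gene, ligands had 4.56 regions per 100 kb of window, the receptors 2.59, the feedback genes 0.923 and Axin1, Tcf7l1 and Tcf7l2 together 3.56, beside 2.46 over all protein-coding genes. The ligand figure counts shared regions more than once, because the windows of Wnt1 and Wnt10b, Wnt3 and Wnt9b, Wnt3a and Wnt9a, and Wnt6 and Wnt10a overlap. Counted once each, ligands had 54 regions, with 28 in siControl untreated, 41 in siControl TGF-β, 29 with set 1 and 14 with set 2. Receptors had 25 regions, called 13, 22, 18 and 11 times in the same order. Feedback genes had 3 regions, called 1, 2, 2 and 0 times, and the remaining factors had 20, called 13, 17, 11 and 10 times. Of the 102 regions, 19 lay within 2 kb of an annotated start of a member, 14 at the promoter of another gene, 30 elsewhere in a member's gene body and 39 further upstream. Regions called in all 4 libraries numbered 25, or 24.5% beside 29.6% of all merged regions. They comprised 9 at ligands, 8 at receptors, 0 at feedback genes and 8 at the other factors.

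A called promoter region was present at 16 of the 37 genes in at least 1 library, beside 42.6% of protein-coding genes. These were 7 ligands, 7 receptors or co-receptors, none of the 3 feedback genes, Axin1 and Tcf7l2. By library the number was 13 in siControl untreated, 13 in siControl TGF-β, 11 with set 1 and 6 with set 2, beside 36.1%, 38.1%, 34.2% and 27.3% of protein-coding genes. When each list was cut to its 14925 most significant regions, so that all had the length of the set 2 list, the numbers were 10, 7, 8 and 6. The promoters called in every library were those of Wnt6, Wnt9a, Fzd2, Fzd7 and Axin1.

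Among ligands, Wnt6 had the strongest promoter region. It lies in the first part of the gene, 1.39 kb downstream of the start in an intron, and its fold enrichment was 10.8 in siControl untreated, 12.5 in siControl TGF-β, 9.83 with set 1 and 6.3 with set 2. Of the 4 values, that with set 2 was the lowest. The region at Wnt9a, a ligand known from joint formation, had 7.42, 7.73, 7.69 and 5.91. Its value was likewise lowest with set 2, at a log2 ratio to siControl TGF-β of -0.39, beside a median of -0.38 over all regions. The CpG-rich region 0.535 kb inside Wnt7b, a ligand of epithelial tissues, had 6.82, 10.1 and 8.64 in the first 3 libraries and was not called with set 2. A pair of further regions, 0.752 kb upstream of Wnt7b and 1.09 kb inside Wnt9a, appeared in siControl TGF-β alone, at 6.59 and 6.68.

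Other ligand promoters were called in 1 or 2 libraries. At Wnt1, a ligand first known from mouse mammary tumours, the fold enrichment was 9.41 in siControl untreated and 8.89 in siControl TGF-β, with no call under either siRNA set. Wnt11, which acts mainly through β-catenin-independent signalling, had the same pattern at an alternative start, with 7.82 and 7.6. Wnt10a, which neighbours Wnt6, was called in siControl TGF-β at 8.81 and with set 1 at 9.83, in a coding exon 1.98 kb from the start. Wnt7a was called in siControl untreated only, at 10.6 with 25 summit fragments, in an exon of the overlapping gene Gm30437. With 15 to 25 fragments behind each of these calls, their presence or absence in a list rests on few reads.

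Frizzled promoters were called mostly just upstream of the start. Fzd1, Fzd2 and Fzd7, which are close relatives in sequence, had their highest fold enrichment in siControl TGF-β. The same held for Fzd8, Wnt6, Wnt7b and Wnt9a among the promoters called in more than 1 library. Those of Wnt1, Wnt10a, Wnt11, Fzd5, Axin1 and Tcf7l2 had theirs in another library. The highest library depends on the scale. Fzd8 had 22 summit fragments in both siControl libraries, and scaled to estimated depth it was lower with TGF-β. Axin1 had 28, 36, 26 and 32 fragments in library order and Wnt11 had 15 and 16 in the siControl libraries, both with most in siControl TGF-β. Among promoters called in both siControl libraries, those of Wnt1, Wnt11, Fzd5 and Axin1 had a lower fold enrichment with TGF-β and the others a higher one. Over all regions called in both siControl libraries, 65.4% had a higher fold enrichment with TGF-β. That share compares the siControl libraries only, and not the highest value among all libraries. Fzd1 had 7.81 in siControl untreated, 12.5 in siControl TGF-β and 5.51 with set 1, from 19, 30 and 13 summit fragments, and was not called with set 2. Fzd2 had 8.84, 11.6, 9.53 and 5.56, from 29, 42, 30 and 19 fragments. Fzd7 had 8.79, 11.5, 10.2 and 10.4, from 24, 28, 30 and 29 fragments, so that in summit fragments its highest value was with set 1. Its fold enrichment with set 2 lay above that of siControl untreated, but in fragments scaled to estimated depth it lay below, so that this direction depends on the scale. The related pair Fzd5 and Fzd8 was called in the first 3 libraries and not with set 2, Fzd5 at 8.18, 7.78 and 9.05 and Fzd8 at 10.0, 10.7 and 7.6. Fzd5 had a further region over its 5′ UTR in siControl TGF-β alone, at 6.37, and Fzd4, which also binds the ligand Norrin, was called there alone, at 8.22.

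Neither co-receptor had a promoter region outside set 1. Lrp5 had a region 1.45 kb inside the gene with set 1 alone, at 6.59 from 19 fragments, and Lrp6 had none. Of the intracellular genes, Axin1, the scaffold of the β-catenin destruction complex, had 10.2, 9.86, 7.13 and 9.96 in the order above. Tcf7l2, a TCF factor, was called at its start in siControl untreated at 6.88 and with set 2 at 5.27, with no call in the other libraries. Axin2, Lef1, Tcf7 and Tcf7l1 had no promoter region in any library.

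**Figure D2:**
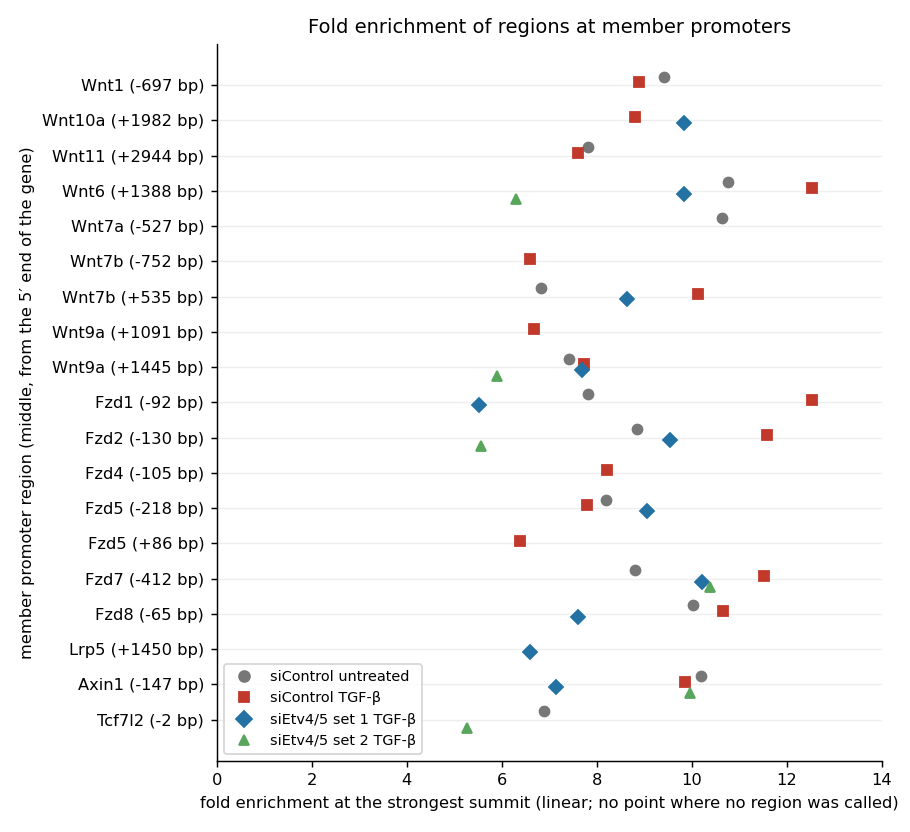
Fold enrichment (x axis, linear) of the 19 regions at member promoters (rows, with the distance of the region's middle from the 5′ end of the gene), 1 symbol per library and none where no region was called. Among promoters called in more than 1 library, Wnt6, Wnt7b, Wnt9a, Fzd1, Fzd2, Fzd7 and Fzd8 have their highest fold enrichment in siControl TGF-β. Only Wnt6, Wnt9a, Fzd2, Fzd7 and Axin1 have a symbol for all 4 libraries.

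With promoters included, the ligand genes with most regions were Wnt3a and Wnt9a, whose windows share the same 8 regions, and Wnt7b with 7. Of these, 2 lay at the Wnt9a promoter and 2 at the Wnt7b promoter. At the Wnt3a and Wnt9a neighbours only the Wnt9a promoter was called in all 4 libraries, while 4 of the 8 regions were called in siControl TGF-β alone, 2 in siControl untreated alone and 1 with set 1 alone. The most covered region of any ligand was in an intron of Wnt7b, 7.72 kb from the start, with 42, 42, 35 and 28 summit fragments and a fold enrichment of 11.1, 10.6, 9.61 and 7.76. It was called throughout, unlike the other 6 regions of Wnt7b, of which none was called with set 2. Wnt4, a ligand that progesterone induces in the mammary epithelium, had an intronic region 9.97 kb from the start with 11.5, 11.2, 11.0 and 9.26. Its value was lowest with set 2, at a log2 ratio to siControl TGF-β of -0.27, beside a median of -0.38 over all regions.

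Among receptors, Lrp5 had 8 regions and Fzd2 had 5, and each of the other receptor genes with any region had 1 or 2. The strongest region of all members was 21.7 kb upstream of Lrp5, at the promoter of 1810055G02Rik, with a fold enrichment of 11.2, 14.9, 13.6 and 9.17 from 33, 47, 44 and 32 fragments. A pair of regions 7.09 and 6.08 kb upstream of Lrp5 lay in an intron of AC132452.5, each with an AP-1 and an ETS match. The first had 8.24, 10.9 and 7.54 and was not called with set 2, and the second had 10.5, 11.9, 10.3 and 8.27. In the Lrp5 gene body, an intronic region 17.3 kb from the start was called throughout, at 8.13, 8.47, 6.52 and 6.77.

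The next strongest member region lay 48.5 kb upstream of Lrp6, in an intron of the neighbouring gene Mansc1. It was not called in siControl untreated and had 14.8 in siControl TGF-β, 7.39 with set 1 and 11.2 with set 2, from 31, 16 and 26 fragments. The other Lrp6 region, in an intron, was called with set 1 alone at 6.23. The third in rank, with 13.1, 12.5, 12.9 and 7.41, was at the Mrpl28 promoter 15.2 kb upstream of Axin1. Since 14 of the member regions sit at promoters of other genes, the window also takes in sites nearer to the start of a neighbour, and the lists do not tell which gene a region acts on.

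Feedback genes were the most sparsely covered class. Lef1, a TCF/LEF factor that β-catenin also induces, had 1 region 25 kb upstream, called in siControl TGF-β at 6.98 and with set 1 at 8.26. Tcf7 had 2 intronic regions, 1 called in siControl TGF-β alone at 10.7, and 1 called in siControl untreated at 8.45 and with set 1 at 6.59. No feedback gene had a region with set 2, and none had a region present in both siControl libraries.

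Tcf7l2 had the most regions of any member, 9, of which 4 were called in all libraries. The pair whose sequences are shown above lay close together upstream of the gene. The region at 27.7 kb had 22 summit fragments in siControl untreated, 50 in siControl TGF-β, 42 with set 1 and 27 with set 2, and a fold enrichment of 6.68, 10.5, 9.23 and 5.8. Its neighbour at 28.9 kb had 39 fragments in siControl TGF-β and 37 with set 1, at a fold enrichment of 8.24 and 8.23, and was called neither in siControl untreated nor with set 2. Both were thus high in siControl TGF-β and set 1, and low or uncalled in the other libraries. An intronic region 53.8 kb inside the gene ran differently, with 9.48, 10.9, 12.3 and 8.11, its highest value with set 1. Axin1 had 6 regions, of which 4 were at promoters of its neighbours, and Tcf7l1, a TCF factor known mainly as a repressor, had 5 in its long gene body, of which 1, at 6.67, 7.95, 9.66 and 6.2, was called throughout.

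**Figure D3:**
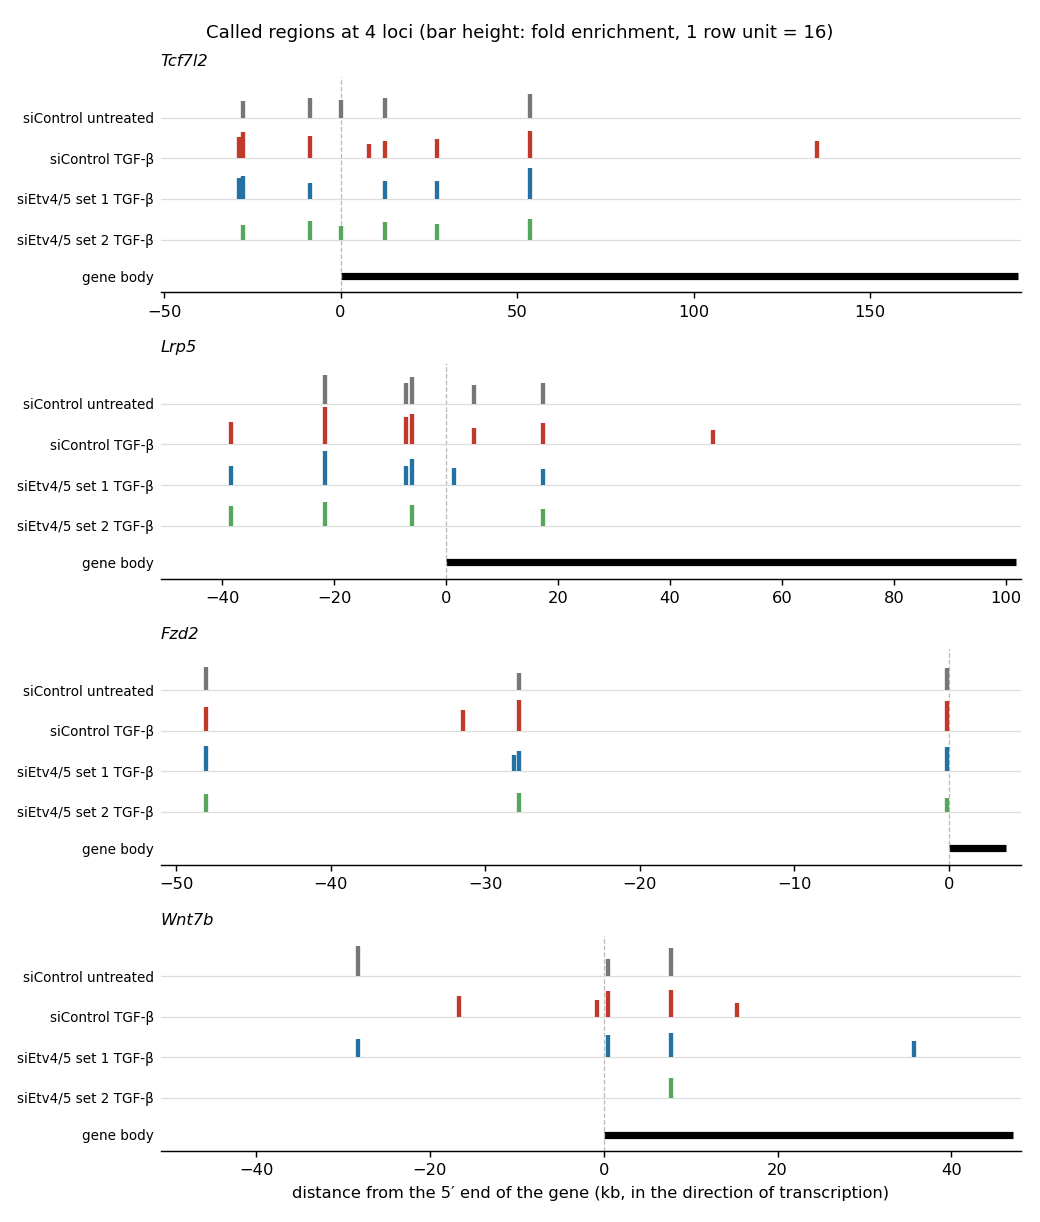
Called regions at Tcf7l2, Lrp5, Fzd2 and Wnt7b by distance from the 5′ end of the gene in kb (x axis) in each library (rows); bar height is the fold enrichment and the black bar the gene body. Tcf7l2 shows the upstream pair in siControl TGF-β and set 1, and a single bar there in siControl untreated and set 2.

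The comparison of siControl TGF-β with siControl untreated asks which sites open or close with TGF-β. Of the 82 member regions in siControl TGF-β, 39 had no overlapping region in siControl untreated, which is 47.6% (Wilson 95% interval 37.1 to 58.2, counting error only) beside 37.0% of all regions of that list. In the other direction, 11 of 55 (20.0%, 11.6 to 32.4) were not called in siControl TGF-β, beside 18.4%. The gained share was 20 of 41 (48.8%, 34.3 to 63.5) at ligands, 9 of 22 (40.9%, 23.3 to 61.3) at receptors and 8 of 17 (47.1%, 26.2 to 69.0) at Axin1, Tcf7l1 and Tcf7l2. These intervals overlap widely. Both regions of feedback genes in siControl TGF-β were gained. Losses numbered 7 of 28 at ligands, 0 of 13 at receptors, 1 of 1 at feedback genes and 3 of 13 at the others. At promoters of any gene 8 of 28 were gained (28.6%, 15.3 to 47.1, beside 22.0%), and away from promoters 31 of 54 (57.4%, 44.2 to 69.7, beside 44.8%).

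Gained regions were weakly covered, with a median of 19 summit fragments against 25 for the other member regions of siControl TGF-β. Over all regions of that list the medians were 20 and 26. The gained member regions with most fragments were the Tcf7l2 region at 28.9 kb, the Lrp6 region at 48.5 kb, both described above, and a region 38.0 kb upstream of Fzd7. The Fzd7 region was not called in siControl untreated and had 25 fragments in siControl TGF-β, 20 with set 1 and 13 with set 2. Of the 39, 25 were called in siControl TGF-β alone, a pattern shared by 24.5% of the 102 member regions and 16.1% of all merged regions. The lost regions with most fragments were 28.3 kb upstream of Wnt7b (29 fragments in siControl untreated and 16 with set 1) and the promoters of Wnt7a and Tcf7l2 (25 each). At equal list length, 14 of 35 member regions were gained (40.0% beside 34.4%) and 17 of 38 were lost (44.7% beside 34.3%), so that gains no longer outnumbered losses. By class, the gains were then 7 of 15 at ligands, 4 of 13 at receptors and 2 of 6 at the other factors, and the losses 7 of 15, 3 of 12 and 6 of 10, so that the 0 losses at receptors in the full lists were not kept.

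Where a member region was called in both libraries, its strength could be compared as a log2 ratio of fold enrichment. The median over 43 such regions was 0.11, beside 0.12 over 18082 regions of the whole series, and 28 of the 43 were above 0, beside 65.4%. The median was 0.11 over 21 ligand regions, 0.17 over 13 receptor regions and 0.00 over 9 regions of the other factors. The largest ratios were 0.83 at a region 27.8 kb upstream of Fzd2, in a UTR of Gm11627, 0.68 at the Fzd1 promoter, 0.65 at the Tcf7l2 region at 27.7 kb, 0.57 at the Wnt7b promoter and 0.47 at a region 22.4 kb upstream of Wnt6, near Prkag3. All 5 were higher in siControl TGF-β. The Fzd2 region at 27.8 kb had 18, 39, 24 and 24 summit fragments and a fold enrichment of 6.84, 12.1, 7.99 and 7.41. It was the only member past 1.5-fold above the median of all regions, where 2.44% of all regions lay, and no member was past 1.5-fold below it (2.43%).

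Counting error alone was wide at these depths. In fragments per M reads of estimated depth (FPM), the Tcf7l2 region at 27.7 kb had 1.44 (exact Poisson 95% interval 0.902 to 2.18) in siControl untreated and 3.07 (2.28 to 4.05) in siControl TGF-β. It was the only 1 of the 43 member regions whose intervals did not overlap, beside 0.166% of all regions. The Fzd2 region at 27.8 kb had 1.18 (0.698 to 1.86) and 2.4 (1.7 to 3.28), and the Fzd1 promoter 1.24 (0.748 to 1.94) and 1.84 (1.24 to 2.63), both with overlapping intervals.

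The siRNA comparisons ask which of the sites accessible with TGF-β are missing after knockdown of Etv4 and Etv5. Both are made against the siControl TGF-β library, which the TGF-β comparison uses as well, so the 3 comparisons are not independent of each other. Of the 82 member regions, 34 were absent with set 1 (41.5%, 31.4 to 52.3, beside 33.6% of all regions) and 51 with set 2 (62.2%, 51.4 to 71.9, beside 53.6%). New regions numbered 11 of 60 with set 1 (18.3%, 10.6 to 29.9, beside 15.2%) and 4 of 35 with set 2 (11.4%, 4.54 to 26.0, beside 10.3%).

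The share of absent regions was higher at ligands than at receptors in both lists, but the intervals overlap and the difference was not tested. With set 1, 19 of 41 ligand regions were absent (46.3%, 32.1 to 61.3), 7 of 22 receptor regions (31.8%, 16 to 53) and 7 of 17 regions of the other factors (41.2%, 21.6 to 64.0). With set 2 the counts were 30 of 41 (73.2%, 58.1 to 84.3), 11 of 22 (50.0%, 30.7 to 69.3) and 8 of 17 (47.1%, 26.2 to 69.0). At equal list length, 7 of 15 ligand regions and 4 of 13 receptor regions were absent with set 2, or 46.7% and 30.8% beside 33.4%, and 5 of 15 and 5 of 13 with set 1, or 33.3% and 38.5% beside 31.4%, where the order of the classes is the other way round. Of the feedback regions, 1 of 2 was absent with set 1 and both with set 2. At promoters of any gene 10 of 28 were absent with set 1 (35.7% beside 24.7%) and 16 of 28 with set 2 (57.1%, 39.1 to 73.5, beside 41.5%). Away from promoters the counts were 24 of 54 (44.4% beside 38.3%) and 35 of 54 (64.8% beside 59.9%).

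**Figure D4:**
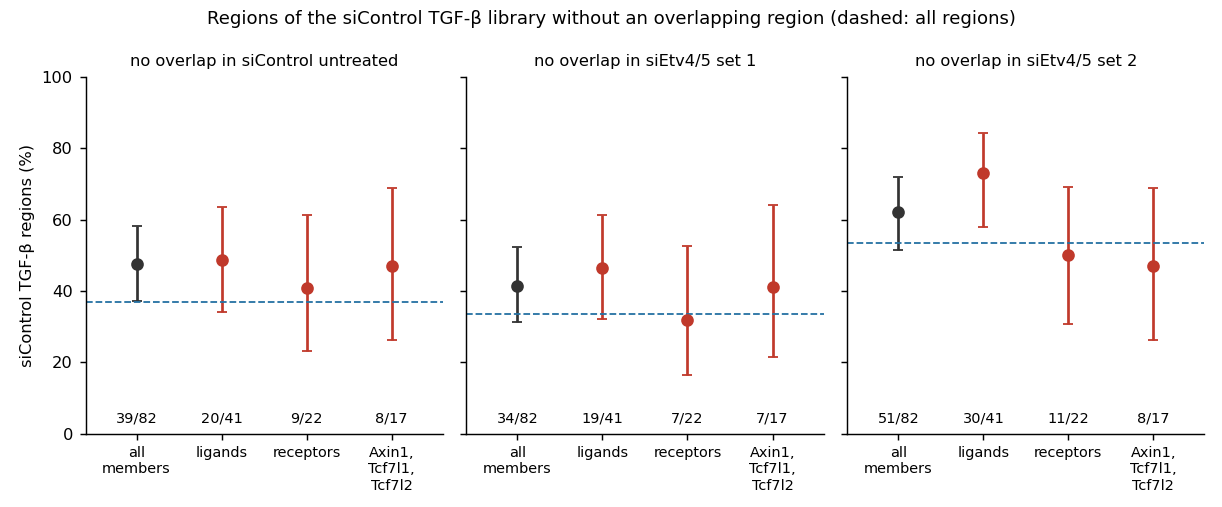
Share (%, y axis) of siControl TGF-β regions with no overlapping region in siControl untreated, set 1 or set 2 (panels), for all members and by class, with Wilson 95% intervals of counting error and the counts below. The dashed line is the share over all regions of the list (37.0%, 33.6% and 53.6%). The ligand interval with set 2, 58.1 to 84.3, lies wholly above the line. The interval of all members in the first panel, 37.1 to 58.2, lies just above it. The intervals treat regions of 1 list per group as independent, so their place above the line is not a test. For all members in the first panel, the share at equal list length was 14 of 35 (40.0%), beside 34.4%. With 10 kb upstream it was 19 of 46 (41.3%), beside 37.0%. At equal list length the ligand share with set 2 was 7 of 15 (46.7%), beside 33.4%.

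Absent regions were again the weakly covered ones, with a median of 19 fragments in siControl TGF-β in both comparisons, against 24.5 for the member regions kept with set 1 and 26 for those kept with set 2. Over all regions the medians were 19 against 26 with set 1 and 20 against 28 with set 2. The absent regions with most fragments were, with set 1, those 31.0 kb upstream of Wnt2b (26 fragments), 7.4 kb upstream of Wnt3a (25) and 21.9 kb inside Wnt7a (24). With set 2 they were the Tcf7l2 region at 28.9 kb (39), the Lrp5 region at 7.09 kb (33) and a region 26.6 kb upstream of Wnt1, at the CpG-rich promoter of Arf3 (32). The Tcf7l2 and Lrp5 regions were both called with set 1, at 37 and 22 fragments, and so were missing under 1 siRNA set and not the other. Regions called with an siRNA set and not in siControl TGF-β were few and weak. With set 1, the highest had 20 fragments, 35.7 kb inside Wnt7b, followed by 19 each for a region 45.7 kb upstream of Wnt4 and one 6.55 kb upstream of Wnt9a. With set 2 they were 3.5 kb upstream of Wnt10a (26), the Tcf7l2 promoter (22) and the Wnt4 region (16), and all 3 of these were also called in siControl untreated.

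At the regions called in both libraries, median strength was lower with each siRNA set, at members as over all regions. With set 1 the median log2 ratio to siControl TGF-β was -0.17 over 48 member regions, beside -0.16 over 19023 regions, and 11 of the 48 were above 0, beside 28.5%. With set 2 it was -0.39 over 31, beside -0.38 over 13318, and 2 of the 31 were above 0, beside 10.6%. By class, the set 1 medians were -0.15 at 22 ligand regions, -0.38 at 15 receptor regions and -0.02 at 10 regions of the other factors, and the set 2 medians were -0.39, -0.44 and -0.30 at 11, 11 and 9 regions. Receptor regions had the lowest median in both, with single regions ranging from -1.18 to 0.22 with set 1.

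The largest ratios with set 1 were -1.18 at the Fzd1 promoter, -1.0 at the Lrp6 region at 48.5 kb, -0.60 at the Fzd2 region at 27.8 kb, -0.53 at the Lrp5 region at 7.09 kb and -0.52 at an intronic region 38.2 kb inside Wnt7a. The first 2 were past 1.5-fold below the median of all regions, beside 2.09% of all regions, and no member was that far above (2.12%). With set 2 they were -1.06 at the Fzd2 promoter, -0.99 at the Wnt6 promoter, -0.85 at the Tcf7l2 region at 27.7 kb, -0.83 at the Fzd7 region at 38.0 kb and -0.81 at the Wnt7a intron. The Wnt7a intron had 7.78, 8.64, 6.02 and 4.93 across the libraries and was among the largest in both comparisons. The Fzd2 and Wnt6 promoters were past 1.5-fold below the median (2.58% of all regions). A region 19.1 kb upstream of Wnt8b, with 7.76 in siControl TGF-β, 8.31 with set 1 and 9.2 with set 2, was the only member past 1.5-fold above it (2.85%). Its log2 ratio with set 2 was 0.25 in fold enrichment but -0.06 in FPM, so its direction depends on the scale.

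Counting intervals of FPM overlapped between set 1 and siControl TGF-β at all 48 member regions, where 0.347% of all regions were lower without overlap. The Fzd1 promoter, for example, had 1.84 (1.24 to 2.63) in siControl TGF-β and 0.752 (0.401 to 1.29) with set 1. With set 2, 3 of the 31 were lower without overlap, beside 9.70% of all regions, and none was higher (0.00751%). These were the Fzd2 promoter, at 2.58 (1.86 to 3.49) against 0.92 (0.554 to 1.44), the Mrpl28 promoter upstream of Axin1, at 2.09 (1.45 to 2.92) against 0.92 (0.554 to 1.44), and the Tcf7l2 region at 27.7 kb, at 3.07 (2.28 to 4.05) against 1.31 (0.861 to 1.9). The share over all regions shows how far the set 2 library as a whole stood below siControl TGF-β on this scale, and its part in these 3 values was not tested.

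**Figure D5:**
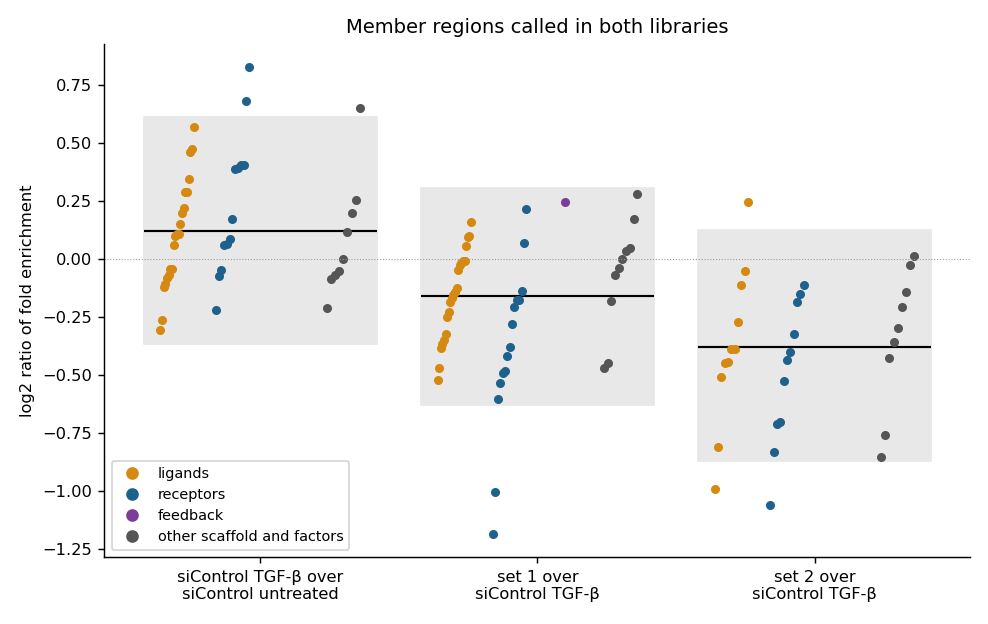
log2 ratio of fold enrichment (y axis) of member regions called in both libraries of each comparison (x axis), coloured by class. Black lines are the medians of all regions (0.12, -0.16 and -0.38) and grey bands run from their 5th to 95th percentile. Most member regions lie inside the bands. The points below them are Fzd1 and Lrp6 with set 1 and Fzd2 and Wnt6 with set 2. The points above them are the Fzd2 region at 27.8 kb, the Fzd1 promoter and the Tcf7l2 region at 27.7 kb with TGF-β, and Wnt8b with set 2.

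The letters of the member regions were compared with those of all regions in 300 bp around the strongest summit, as a description only. The TCF/LEF letters were found in 1 of 102 member regions (0.98%) beside 3.63% of all. AP-1 letters were in 31 (30.4%) beside 40.4%, ETS letters in 23 (22.5%) beside 22.4% and RUNX letters in 25 (24.5%) beside 25.8%. Away from promoters, AP-1 letters were in 26 of 69 member regions (37.7%) beside 52.1%. Member regions called in all 4 libraries held them in 13 of 25 cases (52.0%, beside 39.9%), and those called in fewer libraries in 18 of 77 (23.4%, beside 40.7%). By class, AP-1 letters were in 16 of 54 ligand regions, 5 of 25 receptor regions, 2 of 3 feedback regions and 8 of 20 others, and ETS letters in 15, 3, 0 and 5. Promoter regions of members were often CpG-rich: 10 of 19 had an observed-to-expected CpG ratio above 0.6 (52.6%), beside 62.1% of all regions at promoters.

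A list of 49 further pathway genes was counted in the same way. They held 112, 139, 107 and 78 regions in the order above, or 80.6%, 77.0% and 56.1% of siControl TGF-β for siControl untreated, set 1 and set 2. Of these 49 genes, 15, 16, 16 and 14 had a called promoter, beside 36.1%, 38.1%, 34.2% and 27.3% of protein-coding genes. Called promoters were most frequent among 12 intracellular genes (6, 7, 7 and 5) and 8 nuclear cofactors (4, 5, 5 and 4). They were less frequent among 15 membrane genes (4, 3, 4 and 3) and 12 secreted antagonists (1, 1, 0 and 2), and absent from the ligand secretion genes Porcn and Wls. Ctnnb1, which encodes β-catenin, was called at its promoter in siControl TGF-β at 9.56 and with set 1 at 9.03 and in no other library. Of the ubiquitin ligases that remove Frizzled from the cell surface, Rnf43 was called throughout at 10.1, 8.77, 9.03 and 6.79, and Znrf3 in siControl untreated at 7.19 and with set 1 at 7.68.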

How the data were processed

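FAIRE-seq peak lists of 4 EpRas groups, 1 list each, were analysed, with groups taken from the sample labels. Sequencing by the authors was on an Ion Proton. Reads were trimmed to 36 bp and aligned to mm10 with bowtie2, and MACS2 was used for peak calling with a q-value limit of 0.0001. The submitters' processing notes give MACS2 2.1.0. Whether biological replicates were combined before calling is not given in the sources used here. The deposited lists hold for each peak a fold enrichment (a ratio of summit signal to local background), a -log10 p-value, a -log10 q-value and a whole-number score, all made by the authors' caller. The score was not used.

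Summit fragments were solved from the deposited fold enrichment (pseudocount 1) and Poisson -log10 p-value, and came out whole within 0.05 in 100% of peaks. Depth was estimated from the lowest background, the shortest peak width and an effective genome of 1.87 Gb. This gives 15.3 to 20.7 M reads, and intervals cover counting error only.

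Peaks overlapping by 1 bp were merged into regions, keeping the strongest peak of each library. Windows ran from 50 kb upstream of the gene to its end (GENCODE vM21 basic), and a promoter region had its middle within 2 kb of a start. Distances run from the 5′ end of the gene to the middle of the region. Shares carry Wilson and summit fragments exact Poisson 95% intervals. With 1 list per group no test was run. Overlap counting and the solving step were tested on simulated data.

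The members, gene lists and comparisons were chosen with earlier results of these data known. Regions were named by rule: each member promoter called in any library, the members of each class with most regions, and in each comparison the 5 largest ratios and the 3 regions of most fragments called in 1 list only, besides the 3 highest fold enrichments. The Wnt4 intron region was described outside these rules. Alternatives were a q-value limit of 1e-06, equal list length, 10 kb upstream, a half-peak overlap for sharing, a 1 kb promoter and fragments per M reads (FPM). Counts by class at equal list length and the comparison of counting intervals were added after the data were seen. Python 3.11.15, pandas 2.3.3, scipy 1.17.1 and pysam 0.24.0 were used.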

Additional observations from a re-analysis of the deposited data

How the results depend on the processing

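Of 46 results recomputed under an alternative, 29 stayed within 1.5 times the reported count or, for medians, within 0.1 on the log2 scale, and 17 moved further. All 12 results under a q-value limit of 1e-06 and all 4 under the stricter overlap were among the 29. That limit removed few member regions, leaving 55, 82, 60 and 33, so it could hardly move a result. Equal list length was the length of the set 2 list, so the set 2 counts of regions and promoters could not move there. At equal list length, siControl TGF-β held 35 member regions and set 1 held 37, beside 38 in siControl untreated (55 as reported) and 35 with set 2. At that length 14 regions were gained and 17 lost with TGF-β, 12 were absent with set 1 and 13 with set 2, and 10, 7, 8 and 6 genes had a called promoter in the order siControl untreated, siControl TGF-β, set 1 and set 2. The higher region count of siControl TGF-β was therefore not seen when the lists had the same length. With 10 kb upstream in place of 50 kb, the 4 libraries held 34, 46, 30 and 19 member regions, 19 of 46 were gained (41.3% beside 37.0% of all regions), 7 of 34 lost (20.6% beside 18.4%), 23 of 46 absent with set 1 (50.0% beside 33.6%) and 30 of 46 absent with set 2 (65.2% beside 53.6%). With a 1 kb promoter, 7 genes were called with set 1. In fold enrichment the median log2 ratio was -0.17 with set 1 and -0.39 with set 2, beside -0.16 and -0.38 over all regions. Why the medians differ in fragments per M reads was not tested. There they were -0.30 with set 1 and -0.60 with set 2, beside -0.24 and -0.67 over all regions. In fragments per M reads none of 31 member ratios with set 2 was above 0. Over all 13318 regions the 95th percentile was -0.07 on this scale, so nearly all regions were below 0 as well. The members past 1.5-fold below the median of all regions were then the Fzd2 promoter and the Fzd7 region 38.0 kb upstream, without the Wnt6 promoter. With TGF-β, the Tcf7l2 region at 27.7 kb joined the Fzd2 region at 27.8 kb above the 1.5-fold limit, and an Lrp5 intron region 5.05 kb from the start lay below it. The shares of all regions past 1.5-fold in fragments per M reads are not given here.

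Each group is 1 list from 1 cell line, so differences between conditions and differences between libraries cannot be told apart. Member regions missing from the compared list had a median of 18 or 19 summit fragments in each comparison, so these calls rest on few reads. Over all regions the medians ran from 17 to 20. List length moved with every comparison. No paired analysis was possible because each group has a single list and no test was run.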
